A study of Mus musculus with 6 samples.

Results

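The genes described are 10 markers of mast cells and basophils, chosen by name: Cpa3, Cma1, Mcpt4, Mcpt8, Tpsb2, Tpsab1, Hdc, Ms4a2, Fcer1a and Prss34. All 10 were found among the 43346 genes of the count table. The table holds RNA-seq counts from the distal metaphysis of the femur of C57BL/6 mice, an inbred laboratory strain, aged 4 months. Radiated femurs (libraries R1, R2 and R3) had received focal radiation on the right side, 1 dose of 24 Gy given at 6.6 Gy per minute to 5 mm of bone, and the left femurs of irradiated mice (NR1, NR2 and NR3) had received none and served as controls. A control femur therefore comes from an animal that was itself irradiated elsewhere, and the labels do not say which libraries came from the same mouse or whether animals were pooled. Both were collected at day 21, freed of muscle and homogenised. The labels do not mention removal of marrow, and 10 neutrophil markers summed to 11600 to 18800 CPM in the 6 libraries.

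Mast cells and basophils both carry the high-affinity IgE receptor and store histamine and proteases in granules. Basophils mature in the marrow and circulate, whereas mast cell progenitors leave the marrow and mature in connective tissue and mucosa. In mice the chymases Cma1 and Mcpt4 and the tryptases Tpsb2 and Tpsab1 are stored by connective tissue mast cells, and Mcpt8 and Prss34 are proteases of basophils. Cpa3 (a carboxypeptidase), Hdc (the enzyme that makes histamine), and Fcer1a and Ms4a2 (the alpha and beta chains of the IgE receptor) are shared by both lineages, and Hdc is also transcribed in other myeloid cells of marrow.

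The fitted fold changes of the tested genes were not all of 1 sign. The basophil proteases and the 4 shared genes were lower in radiated femur, by 19.8 to 34.1%. The mast cell proteases had higher values, all at very low counts, with Tpsb2 5.56-fold higher in the fit. By edgeR's quasi-likelihood test with Benjamini-Hochberg adjustment over 18757 genes, 6 of the 10 were called lower and 1 higher at an adjusted p under 0.05, 1 was tested and not called (Cma1), and 2 did not pass the filter on low counts (Mcpt4 and Tpsab1). Over all genes tested 7.8% were called, 3.24% lower and 4.56% higher. With the replicate number of the labels as a block, 5 of the 10 were called lower and 1 higher, and 8.9% of all genes tested were called. The groups' normalised levels did not overlap for the 6 genes called lower, nor for Tpsb2 and Cma1, which were higher. Tpsb2 and Cma1 passed the filter on low counts through their radiated libraries alone, so their separation is not support for a rise. The call of Tpsb2 was not made in 6 of 14 alternatives. Over all genes tested 25.9% had groups that did not overlap, 11.5% lower and 14.4% higher. Mcpt4 and Tpsab1 were not tested, and their counts are too few for such a reading. Levels are in CPM, a gene's count relative to the library's total after scaling by the trimmed mean of M-values (TMM). In bulk tissue, fewer cells of a type and less RNA per cell cannot be told apart.

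**Figure D1:**
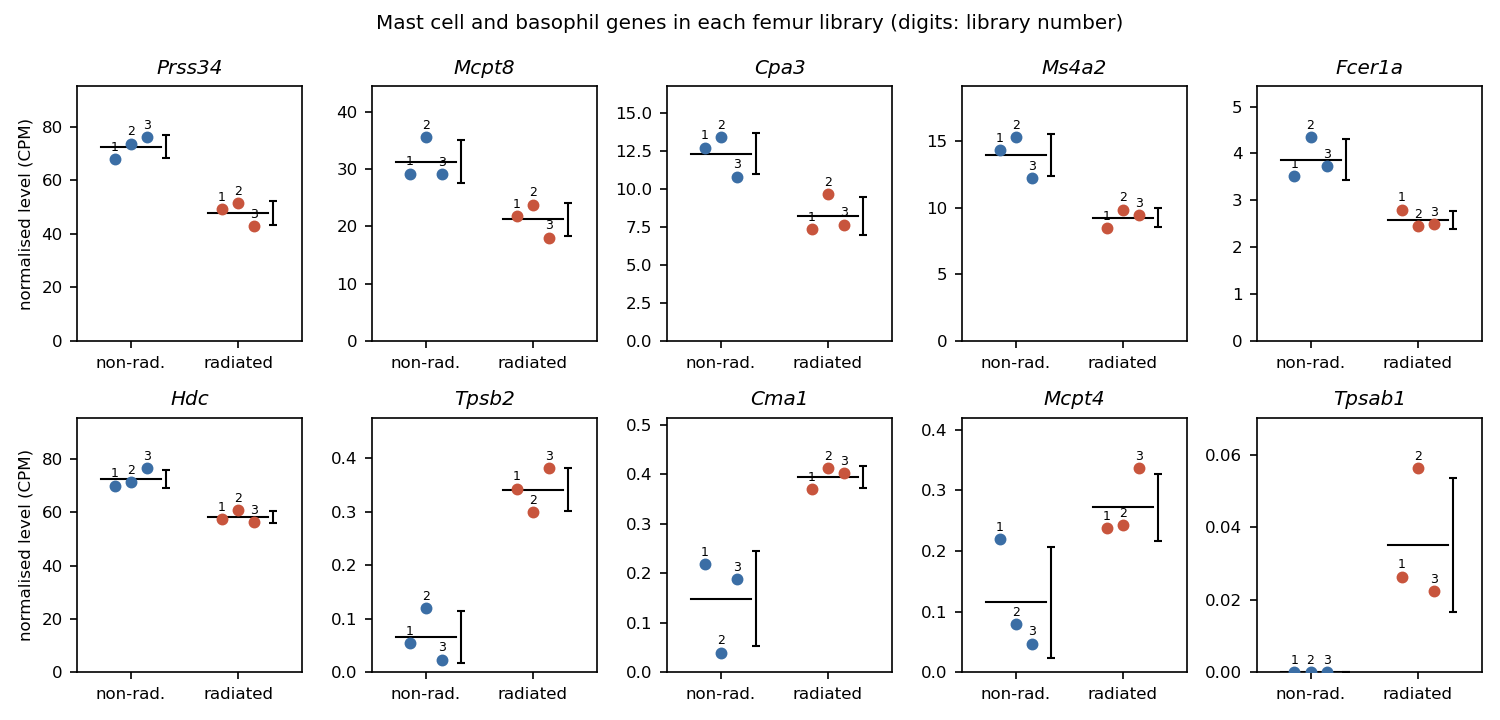
Normalised level in CPM (y axis, from 0) of each of the 10 genes in the 3 non-radiated (blue) and 3 radiated (red) libraries. Points are libraries, horizontal lines are group means and bars are 1 SD. The first 6 panels are lower in every radiated library and Tpsb2 and Cma1 are higher in each, at or below 0.412 CPM. Mcpt4 and Tpsab1 rest on counts too few to separate the groups.

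Among these 10 genes the basophil proteases were the most abundant per base of transcript. In the non-radiated libraries Prss34 stood at 59.6 ± 3.54 CPM per kilobase and Mcpt8 at 36.6 ± 4.37 (mean ± SD, n = 3). They were followed by Hdc at 11.4 ± 0.534, Cpa3 at 8.10 ± 0.889, Ms4a2 at 4.96 ± 0.552 and Fcer1a at 3.87 ± 0.437 CPM per kilobase. The connective tissue mast cell proteases lay far below, with Cma1 at 0.139 ± 0.0894, Mcpt4 at 0.117 ± 0.0924 and Tpsb2 at 0.0611 ± 0.0454 CPM per kilobase, and Tpsab1 at 0. Neighbours in this order had separate values down to Ms4a2. The ranges of Ms4a2 and Fcer1a touched, and those of Cma1, Mcpt4 and Tpsb2 overlapped one another. In the radiated libraries the order of the first 6 was kept, and Tpsb2, at 0.316 ± 0.0376 CPM per kilobase, had moved above Mcpt4 at 0.275 ± 0.0558, with overlapping ranges. The depth behind the values differed accordingly: Fcer1a had 106 to 158 counts per library, the other 5 genes at the top of this order had 278 or more, and each mast cell protease had 22 or fewer.

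Promoters of 4 protease genes are shown because they sit in shared clusters and had fold changes of different sign. The positive changes of Cma1 (edgeR adjusted p 0.129) and Mcpt4 (0.319 with no filter) were not called. The windows shown are the 250 bases before the RefSeq start (GRCm38.p6), written on the gene's strand and ending just before the start. Capitals mark the motif of the GATA factors, searched on both strands as AGATAA or AGATAG (the words starting with A) and TGATAA or TGATAG (those starting with T).
Prss34 (chr17:25298144-25298393, plus strand): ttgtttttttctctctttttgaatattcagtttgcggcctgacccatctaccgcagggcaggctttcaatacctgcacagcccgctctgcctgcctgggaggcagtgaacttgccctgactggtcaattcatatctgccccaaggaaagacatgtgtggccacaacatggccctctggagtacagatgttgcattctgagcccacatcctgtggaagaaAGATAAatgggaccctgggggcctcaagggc
Mcpt8 (chr14:56085198-56085447, minus strand): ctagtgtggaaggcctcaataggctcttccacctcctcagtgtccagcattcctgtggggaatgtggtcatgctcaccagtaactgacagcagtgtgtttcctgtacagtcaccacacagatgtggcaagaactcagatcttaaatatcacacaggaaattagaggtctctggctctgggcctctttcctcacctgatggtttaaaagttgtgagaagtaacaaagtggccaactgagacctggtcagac
Cma1 (chr14:55944676-55944925, minus strand): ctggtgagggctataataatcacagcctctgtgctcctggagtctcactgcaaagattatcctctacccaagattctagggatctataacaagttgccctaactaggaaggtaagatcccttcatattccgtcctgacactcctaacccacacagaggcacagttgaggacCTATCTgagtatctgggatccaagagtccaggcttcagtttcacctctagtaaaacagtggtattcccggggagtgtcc
Mcpt4 (chr14:56062311-56062560, minus strand): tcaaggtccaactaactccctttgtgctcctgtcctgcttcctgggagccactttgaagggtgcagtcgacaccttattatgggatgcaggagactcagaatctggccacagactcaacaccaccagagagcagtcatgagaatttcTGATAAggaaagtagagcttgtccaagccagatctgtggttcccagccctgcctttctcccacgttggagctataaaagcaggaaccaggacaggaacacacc
The motif begins 31 bases before the start of Prss34, 79 before Cma1 and 103 before Mcpt4, and these letters are not in the Mcpt8 window. RefSeq promoters were matched for 8 of the 10 genes, and 7 of the 8 held the motif, with Mcpt8 as the exception and 3 matches in Ms4a2. Of 32851 promoter windows of this length, 26.5% hold it at least 1 time. A match in a window is a description of its letters.

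Prss34 (ENSMUSG00000056399, chromosome 17, 25298394 to 25300161 in mm10), a basophil tryptase, was at 67.7, 73.6 and 76.1 CPM in NR1, NR2 and NR3 and at 49.2, 51.3 and 42.8 CPM in R1, R2 and R3. Every radiated library lay well below every control. The log2 fold change of radiated against non-radiated libraries (log2 change) was -0.60 (SE 0.08, edgeR adjusted p 0.00203), a fall of 34.1%, and it was called in 14 of 15 alternatives.

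Mcpt8 (ENSMUSG00000022157, chromosome 14, 56082166 to 56085216), a basophil granule protease, was at 29.2, 35.6 and 29.1 CPM in NR1 to NR3 and at 21.8, 23.8 and 18.0 CPM in R1 to R3. NR2 was the highest and R3 the lowest, and the groups did not overlap. The log2 change was -0.56 (SE 0.12, edgeR adjusted p 0.0216). The call was lost without NR2 (log2 change -0.47, edgeR adjusted p 0.0645) and without R1 (-0.58, 0.068). Together the basophil proteases summed to 104 ± 6.24 CPM in the controls and 69.0 ± 7.35 CPM in the radiated femurs (mean ± SD, n = 3 per group). Mcpt8 stood at 38.2 to 48.4 counts per 100 Prss34 counts in the controls and at 42.1 to 46.4 in the radiated libraries, so their ratio within a library overlapped between groups.

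The IgE receptor chains were lower by a similar amount. Ms4a2 (ENSMUSG00000024680, chromosome 19, 11615523 to 11623719) was at 14.3, 15.3 and 12.2 CPM in NR1 to NR3 and at 8.45, 9.85 and 9.41 CPM in R1 to R3. Its log2 change was -0.59 (SE 0.11, edgeR adjusted p 0.0123). Fcer1a (ENSMUSG00000005339, chromosome 1, 173221284 to 173227214) was at 3.51, 4.35 and 3.73 CPM in NR1 to NR3 and at 2.80, 2.45 and 2.49 CPM in R1 to R3. The groups were separate for both genes, and the log2 change of Fcer1a was -0.58 (SE 0.15, edgeR adjusted p 0.0442). With the replicate number as a block the Fcer1a call was lost (edgeR adjusted p 0.0591), and it was lost whichever library was left out (0.0684 to 0.14). Over the whole table the block called 8.9% of genes. Fcer1g, the gamma chain that the IgE receptor shares with other Fc receptors of myeloid cells, had a log2 change of -0.08 (SE 0.07, edgeR adjusted p 0.539) with overlapping groups, and its sign turned under library totals alone (0.12). Whether its change differs from that of the alpha and beta chains was not tested.

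Cpa3 (ENSMUSG00000001865, chromosome 3, 20215620 to 20242181), which is transcribed from early mast cell and basophil progenitors onward, was at 12.7, 13.4 and 10.8 CPM in NR1 to NR3 and at 7.34, 9.63 and 7.64 CPM in R1 to R3. R2 came closest to the controls, and the log2 change was -0.58 (SE 0.13, edgeR adjusted p 0.0307). This call was lost without NR1 (edgeR adjusted p 0.0985), NR2 (0.101), R1 (0.116) or R3 (0.081). Ms4a2 stood at 112 to 114 counts per 100 Cpa3 counts in the controls and at 102 to 123 in the radiated libraries. Both genes thus held nearly the same proportion in all 6 libraries.

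Hdc (ENSMUSG00000027360, chromosome 2, 126593667 to 126619299) was at 70.1, 71.3 and 76.5 CPM in NR1 to NR3 and at 57.6, 60.9 and 56.3 CPM in R1 to R3. The groups were tight and separate, and the log2 change was -0.32 (SE 0.06, edgeR adjusted p 0.0107), a fall of 19.8%. Its call was lost without R1 (edgeR adjusted p 0.0537). The neutrophil markers, from cells that can also transcribe Hdc, summed to 14600 to 18800 CPM in the controls and 11600 to 13600 CPM in the radiated libraries. Their part in the fall of Hdc was not tested. Without R1, Prss34 was the single gene of the 10 still called (edgeR adjusted p 0.00975), while calls over all genes tested dropped from 1463 to 764. Without NR1, NR2 or R3, 4 of the 10 were called in each case. The log2 changes of the 6 lower genes without R1 were -0.64 to -0.31, against -0.60 to -0.32 with all libraries.

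These 6 falls depended on the scaling of the libraries. In NR2 the single row AY036118 held 32.9% of the counts, against 0.321 to 5.61% in the other 5 libraries. Scaled by library totals alone, which lets this row enter the scaling, the 6 log2 changes were -0.41 to -0.13 and each lost its call, with edgeR adjusted p of 0.388 to 0.801. The median log2 change of all genes was then 0.19, against 0.00 with TMM. With library totals taken without AY036118 and Gm26917, 5 of the 6 were called lower, with Fcer1a at an edgeR adjusted p of 0.0514.

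**Figure D2:**
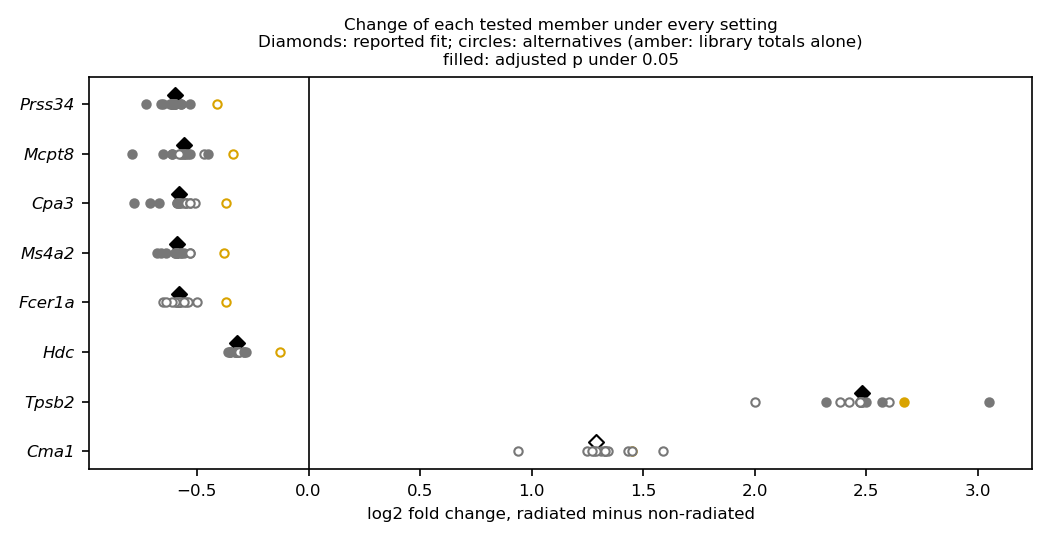
Log2 fold change (x axis, radiated minus non-radiated) of the 8 tested genes in the reported fit (diamonds) and in up to 15 alternatives (circles, with library totals alone in amber), filled where the adjusted p was under 0.05. No gene changed sign in any of them, and the 6 lower genes moved toward 0 and lost their calls under library totals alone.

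Tpsb2 (ENSMUSG00000033825, chromosome 17, 25366550 to 25368094), the main tryptase of connective tissue mast cells, had 2, 3 and 1 counts in NR1 to NR3 and 13, 16 and 17 counts in R1 to R3. In CPM these are 0.0549, 0.120 and 0.0236 against 0.343, 0.300 and 0.381. The lowest radiated library stood well above the highest control. The fitted log2 change was 2.48 (SE 0.55, edgeR adjusted p 0.0254). From the pooled counts, 46 against 6, the ratio was 5.86 with a 95% exact conditional interval of 2.5 to 16.8, which covers counting error only. Tpsb2 passed the filter on low counts through its radiated libraries alone, and 6 of 14 alternatives did not call it, including DESeq2's Wald test (adjusted p 0.0562) and the fits without NR1, NR3, R1 or R3 (edgeR adjusted p 0.0688 to 0.0937). The direction was the same in all 14, with log2 changes of 2.0 to 3.05.

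Cma1 (ENSMUSG00000022225, chromosome 14, 55941453 to 55944661), a mast cell chymase, had 8, 1 and 8 counts in NR1 to NR3 and 14, 22 and 18 counts in R1 to R3. The levels were 0.219, 0.0399 and 0.189 CPM against 0.370, 0.412 and 0.403 CPM. The groups did not overlap and NR2 was the lowest library. The log2 change was 1.29 (SE 0.45), and the edgeR adjusted p of 0.129 missed the threshold, as it did in each of the 14 alternatives (0.0913 to 0.286). Cma1 also passed the filter through its radiated libraries alone. The pooled ratio was 2.43 (95% counting interval 1.39 to 4.47).

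Mcpt4 (ENSMUSG00000061068, chromosome 14, 56059744 to 56062310), the second chymase of these cells, had 8, 2 and 2 counts in NR1 to NR3 and 9, 13 and 15 counts in R1 to R3. NR1 and R1, at 0.219 and 0.238 CPM, were separated by a single count, so the lack of overlap has little weight there. The pooled ratio was 2.36 (95% counting interval 1.2 to 4.97). With no filter on low counts its log2 change was 1.21 (SE 0.59, edgeR adjusted p 0.319). In that fit 7.2% of 28798 genes were called, 4.49% higher and 2.71% lower.

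Tpsab1 (ENSMUSG00000024173, chromosome 17, 25343245 to 25345562) had 0 counts in each control and 1, 3 and 1 counts in R1, R2 and R3. C57BL/6 mice are known to carry a splice-site defect in this gene. A count of 0 allows up to 3 counts, or 0.0708 to 0.120 CPM in the controls, so no difference was detectable at this depth and no fold is given. Transcripts of Tpsab1 and Tpsb2 align at 86.1% identity over 180 bases, and those of Mcpt4 resemble Mcpt1, Cma2 and Mcpt9 at 82.5 to 85.3% over 812 to 998 bases. Mcpt1, Mcpt9 and Cma2 had 11, 2 and 0 counts over all 6 libraries, and how reads that fit several of these genes were counted is not given in the sources used here, so the values of Mcpt4 are uncertain to that extent. Part of the Cma1 transcripts aligns with the predicted gene Gm48934 at 96.9% over 295 bases.

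The 4 mast cell proteases summed to 18, 6 and 11 counts in NR1 to NR3 and 37, 54 and 51 counts in R1 to R3. Relative to Cpa3 in the same library, a measure that needs no scaling between libraries, they stood at 3.88, 1.79 and 2.41 counts per 100 Cpa3 counts in the controls and at 13.3, 10.5 and 15 in the radiated libraries. Cpa3 was itself called lower, so its fall enters this measure. The summed level of the 4 proteases averaged 0.331 ± 0.141 CPM over the controls and 1.04 ± 0.0874 CPM over the radiated femurs (± SD, n = 3 per group). The ratio of radiated to control means was 4.8 relative to Cpa3 and 3.15 in CPM. The grouping was made with the values known, and Tpsb2 and Cma1 passed the filter through their radiated libraries alone. No test is given for these sums, and their separation is not support for a rise.

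Skeletal muscle is a tissue that houses connective tissue mast cells, and its markers were at unequal levels. The 18 muscle markers summed to 584, 888 and 476 CPM in NR1 to NR3 and to 2000, 6210 and 630 CPM in R1 to R3, with none of the 18 called by edgeR, DESeq2 or limma-voom, although all 18 had an unadjusted p under 0.05. With the replicate number as a block edgeR called 15 of the 18 higher. It called 18 with no filter and under library totals alone, 14 without R3 and 2 without R1. Every muscle marker had counts in every library, the lowest being 20 for Myh7 in NR3 (a gene named after its values were seen). R3, whose muscle level lay inside the range of the controls, had the highest summed level of mast cell proteases, 1.14 CPM. R2, with by far the most muscle RNA, was at 1.01 CPM. Without R2 the log2 change of Tpsb2 was 2.57 (edgeR adjusted p 0.0476). With the muscle level as a covariate it was 2.60 (edgeR adjusted p 0.0671) and that of Cma1 was 1.34 (0.286), while 5 of the 6 falls remained called and Fcer1a was at 0.153. The levels of R2 and R3 are those of individual libraries, and the part of muscle in the mast cell protease counts was not tested.

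**Figure D3:**
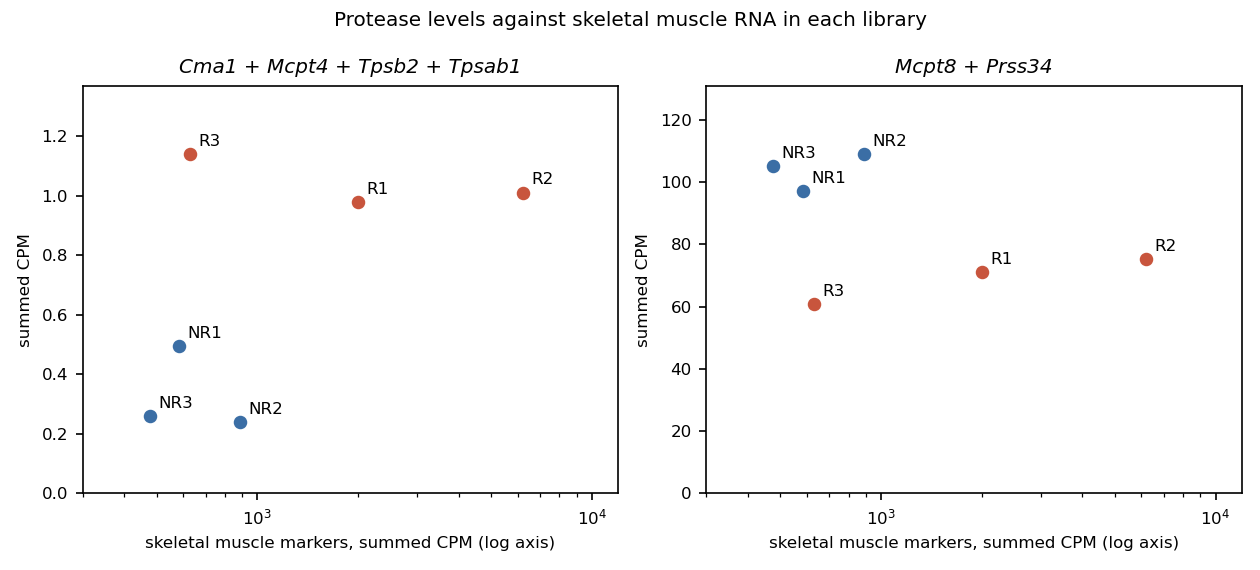
Summed CPM of the 4 mast cell proteases (left) and of both basophil proteases (right) against the summed CPM of 18 skeletal muscle markers (x axis, log scale), with 1 point per library. R3 has a muscle level within the range of the non-radiated libraries and a summed mast cell protease level of 1.14 CPM. The part of muscle in these levels was not tested.

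Of the connective tissue, tendon and nerve markers, 2 of 9 tested genes were called, both higher: Fmod and Thbs4, matrix genes of tendon and cartilage, with log2 changes of 1.15 and 2.02 (edgeR adjusted p 0.0105 and 0.0165). With the muscle level as a covariate both calls were lost, at log2 changes of 0.84 and 1.12 (edgeR adjusted p 0.0537 and 0.060), and that of Thbs4 was also lost without NR2 (0.0633) or NR3 (0.0548). In this list 1 gene was called without NR2 or NR3 and 5 without R3. Both were higher in every radiated library than in any control, with R3 the lowest of the radiated libraries at 31.9 CPM for Fmod and 5.27 CPM for Thbs4. The 12 markers summed to 98.4 to 102 CPM in the controls and to 120, 145 and 95.6 CPM in R1, R2 and R3. Sox10, a nerve marker named for this after its values were seen, was at 0 in NR2. The part of these tissues in the mast cell protease counts was not tested.

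Neighbouring protease genes had fold changes of different sign, and the positive ones of Cma1 and Mcpt4 were not called. On chromosome 14 Cma1, Mcpt4 and Mcpt8 lie in 1 cluster with other chymases and granzymes, with Mcpt4 starting 118.3 kb and Mcpt8 140.7 kb from the start of Cma1. Ctsg, cathepsin G of neutrophil and mast cell granules and the next protein-coding gene after Mcpt8, fell like it, with a log2 change of -0.44 (SE 0.07, edgeR adjusted p 0.00380), and the part of the neutrophil levels given above in this fall was not tested. On chromosome 17 the start of Tpsb2 is 68.2 kb from that of Prss34, with Prss34 called lower and Tpsb2 called higher on the few counts given above, a call that 6 of 14 alternatives did not make. Cpa3 and Mcpt8 each overlap an annotated microRNA with at most 5 counts in a library, and the other 8 genes overlap no other gene of the table.

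**Figure D4:**
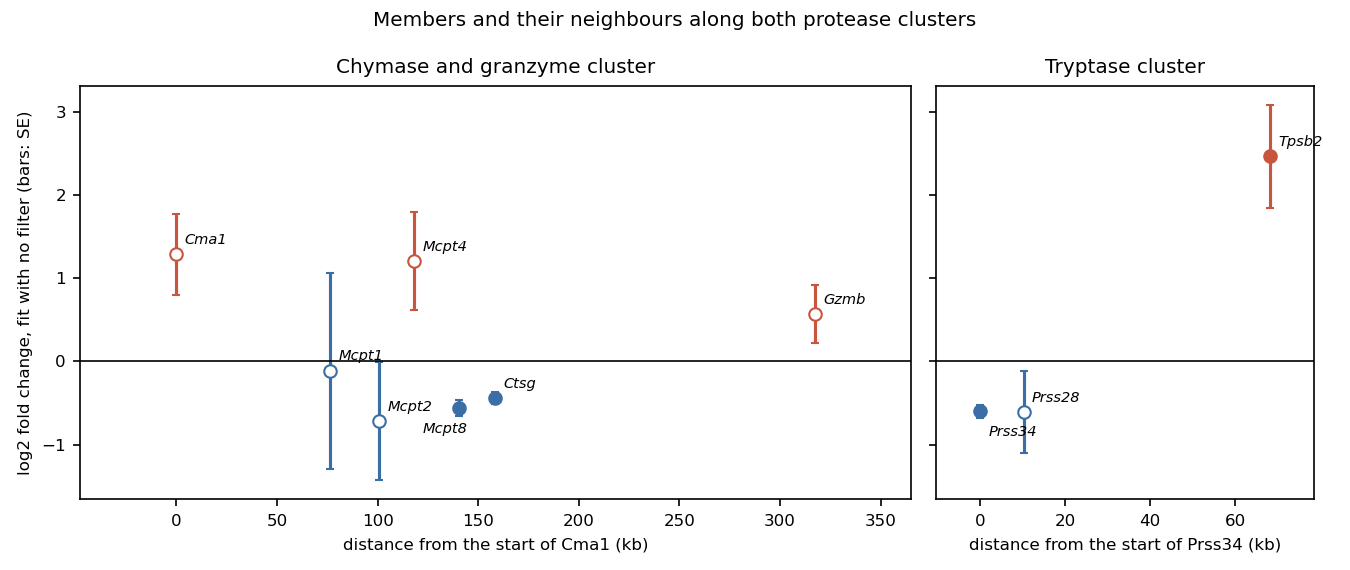
Log2 fold change (y axis, fit with no filter, bars are SE) of protein-coding genes with at least 5 counts in each group, against the distance of their start from Cma1 (left) or Prss34 (right) in kilobases. Filled points have an adjusted p under 0.05: Mcpt8, Ctsg and Prss34 are lower and Tpsb2 is higher. The rule on counts leaves out Gzme, with 1 count in the controls and 41 in the radiated libraries. Its edgeR adjusted p in this fit was 0.00652. Gzmc, with 3 against 29 counts, is also left out (edgeR adjusted p 0.061).

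Other genes of mast cells and basophils were taken from 7 lists with 88 genes, of which 69 passed the filter. Of these, 17 were called lower and 4 higher, against 3.24% and 4.56% of all genes tested, and the median log2 change was -0.08, against 0.00 over all genes. The split was 15 lower and 7 higher with library totals taken without AY036118 and Gm26917, and 3 lower and 2 higher under library totals alone, and 13 genes were called without NR2. Many of these genes work in other marrow cells as well.

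Among receptors and surface proteins, 5 of 16 tested genes were called, all lower. The count was 2 without NR2, 2 without R1, 3 without NR1 or R3, 2 with the muscle covariate and 0 under library totals alone. Kit, the receptor for stem cell factor on mast cells and early progenitors, was at 75.5, 82.6 and 71.5 CPM in NR1 to NR3 and at 58.1, 57.1 and 58.1 CPM in R1 to R3, with a log2 change of -0.40 (SE 0.06, edgeR adjusted p 0.00454). Il1rl1, the receptor for interleukin-33, fell by 0.32 and Itga2, an integrin chain also found on platelets, by 0.73 on the log2 scale (edgeR adjusted p 0.0319 and 0.00194). Cd200r3, a surface receptor of basophils and mast cells, was at 6.61 to 7.35 CPM in the controls and 5.22 to 5.34 CPM in the radiated libraries, with an edgeR adjusted p of 0.0595. Its groups were well apart although the call was missed. Mrgprb2, a receptor of connective tissue mast cells, had 1, 0 and 0 counts in NR1 to NR3 and 5, 4 and 7 counts in R1 to R3, a pooled ratio of 12.2 with a 95% counting interval of 1.9 to 513. It was under the filter, and with no filter its edgeR adjusted p was 0.121.

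Among transcription factors, 1 of 12 was called lower and 1 higher. The rise, that of Bhlhe41, was not called without NR1, NR2, R1, R2 or R3. Gata2, which acts in progenitors and in the basophil and mast cell lineages, was at 14.1, 16 and 15.7 CPM in NR1 to NR3 and at 9.30, 10.6 and 10.4 CPM in R1 to R3, with a log2 change of -0.60 (SE 0.09, edgeR adjusted p 0.00542). Of 10 stem and progenitor markers 5 were called lower, and their sum was 208 to 211 CPM in the controls and 132 to 146 CPM in the radiated libraries. Kit is itself one of these 10 markers and of the 5 called. Without Kit they summed to 129 to 137 CPM in the controls and 73.9 to 89 CPM in the radiated libraries, and their part in the falls of Kit and Gata2 was not tested. Bhlhe41 rose by 0.41 on the log2 scale (edgeR adjusted p 0.0270). It was called in 8 of 15 alternatives, and not with the muscle covariate or under library totals alone. Kitl, the gene of stem cell factor, made by marrow stroma, had a log2 change of -0.15 (edgeR adjusted p 0.202), and it was 0.04 under library totals alone.

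Granule genes included 3 called among 11 tested, all lower. Slc18a2, the vesicular transporter that loads histamine and serotonin, was at 7.46, 9.58 and 8.28 CPM in NR1 to NR3 and at 3.54, 4.55 and 3.63 CPM in R1 to R3, with a log2 change of -1.10 (SE 0.15, edgeR adjusted p 0.00230). Rab27b, a GTPase of granule docking, fell by 1.6 and Srgn, the granule proteoglycan serglycin, by 0.35 (edgeR adjusted p 5.94e-06 and 0.00916). Slc18a2 and Rab27b also serve platelet granules, as Lat serves platelet signalling. The 9 megakaryocyte markers were all called lower, with a median log2 change of -1.45, and summed to 1020 to 1090 CPM in the controls and 350 to 416 CPM in the radiated libraries. Their part in these falls was not tested.

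Of 7 eicosanoid genes 3 were called lower and 2 higher. Neither rise was called with the muscle covariate (4 lower) or without NR1 or R1 (2 lower in each case), and 1 rise was called without NR2, R2 or R3. Under library totals alone 1 was called higher and 0 lower. Ptgs1, Pla2g4a and Alox5ap fell by 0.39, 0.44 and 0.30 on the log2 scale (edgeR adjusted p 0.00137, 0.00767 and 0.0280). The part of other marrow cells, such as megakaryocytes and neutrophils, in these 3 falls was not tested. Hpgds, the haematopoietic prostaglandin D synthase, rose by 0.45 on the log2 scale, with an SE of 0.10 (edgeR adjusted p 0.0238). Ltc4s, the leukotriene C synthase of mast cells, basophils and macrophages, was at 0.933, 0.519 and 1.2 CPM in NR1 to NR3 and at 1.90, 2.57 and 1.84 CPM in R1 to R3, with a log2 change of 1.21 (SE 0.28, edgeR adjusted p 0.0319). Ltc4s was named after its values were seen. The 9 macrophage markers, of which 6 were called higher, summed to 1100 to 1240 CPM in the controls and 1420 to 1630 CPM in the radiated libraries, and their part in the 2 rises was not tested.

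In the signalling pathway below the IgE receptor, 4 of 16 genes were called lower and 1 higher, and 3 lower and 0 higher without NR2. Lat, Grap2 and Lcp2, which form the adaptor complex, fell by 1.0, 0.46 and 0.27 on the log2 scale (edgeR adjusted p 7.66e-05, 0.00147 and 0.00996). Plcg1, a phospholipase that acts below this complex, rose by 0.36 on the log2 scale (edgeR adjusted p 0.0102). None of the 5 tested growth factor and cytokine genes was called in the reported edgeR fit or by limma-voom. In that fit 3 had an unadjusted p under 0.05, and DESeq2 called 1. The edgeR test called 1 higher under library totals alone, 1 without R1, and 1 of 8 with no filter. Il4, a cytokine of basophils, had 15, 9 and 22 counts in NR1 to NR3 and 8, 16 and 10 counts in R1 to R3. In CPM these were 0.411, 0.359 and 0.519 against 0.211, 0.300 and 0.224, lower without overlap, as were 11.5% of all genes tested. The log2 change of Il4 was -0.81 (SE 0.34, edgeR adjusted p 0.203). Il4 was named outside the rule for naming genes given below.

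**Figure D5:**
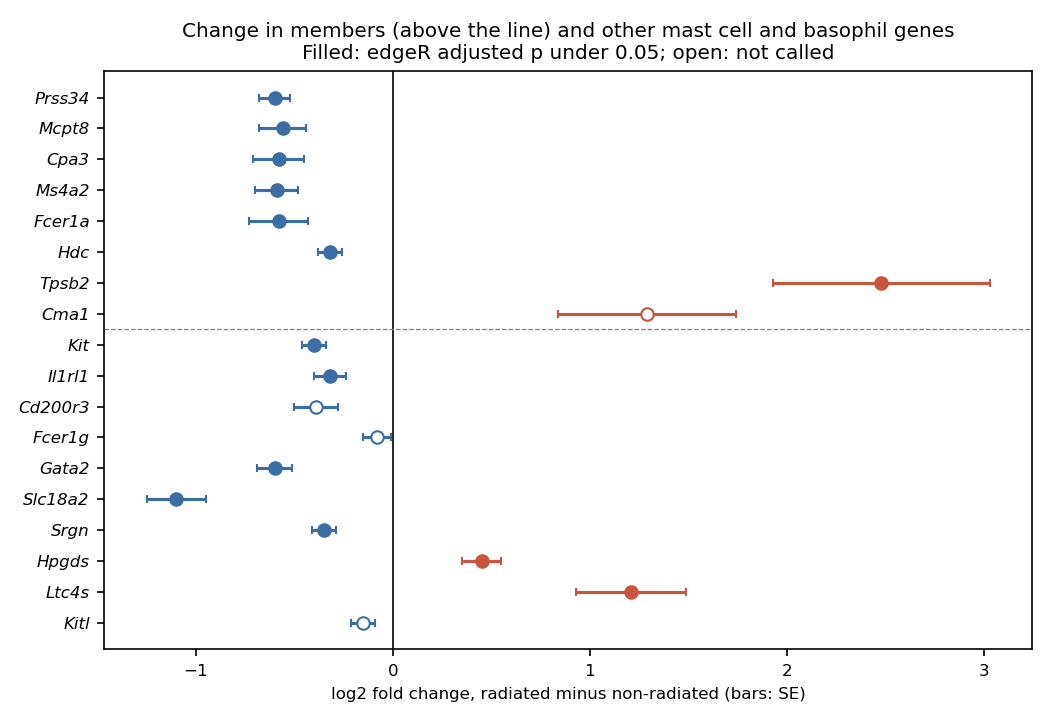
Log2 fold change with SE (x axis, radiated minus non-radiated) of the 8 tested members, above the dashed line, and of 10 other genes of these lineages below it. Filled points have an edgeR adjusted p under 0.05. Members fall by 0.32 to 0.60 except Tpsb2 at 2.48 and Cma1 at 1.29.

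Other granulocyte lineages were lower as well, in part. Of 9 eosinophil markers 3 were called lower (Epx, Prg2 and Ear1, with log2 changes of -0.55, -0.72 and -0.70), with a median of -0.52. That count was 1 without NR1, NR2, R1 or R3, 2 without R2, 6 without NR3, 5 with the replicate block and 0 under library totals alone. All 10 neutrophil markers had negative values with a median of -0.35. In the reported edgeR fit none was called, although 9 had an unadjusted p under 0.05, DESeq2 called 9 and limma-voom 2. The edgeR test called 4 of them with the replicate block and 6 with no filter, all lower. It called 3 without NR1, 2 without NR3 and 2 with the muscle covariate. Under library totals alone or without NR2, R1 or R3 it called 0. The 6 lower members lay between -0.60 and -0.32. Differences between these lineages were not tested.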

How the data were processed

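Counts per gene and RPKM were deposited by the authors with a column of each for every library, per the file headers. Tools named in the submitters' processing notes are STAR 2.5.2b, Subread, featureCounts and bcl2fastq, and the build is mm10. The annotation, filters and strand setting are not given in the sources used here. RPKM values deposited by the authors were not used, as what they are scaled to is not stated. Library totals were 34034251 to 48708383 counts. Libraries are counted as replicates, and nothing says that they come from separate animals, so p-values measure the spread between these libraries. Replicates within a group differed by 17.8 to 631 in chi-square per degree of freedom.

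The quasi-likelihood test of edgeR 4.0.16 was run on the counts in R 4.3.3 (filterByExpr with minimum count 10 and minimum total 15, TMM, glmQLFit and glmQLFTest, group as the only term) over all 18757 genes that passed. The SE is the log2 change divided by the square root of F. Alternatives were other scalings and filters, DESeq2 1.42.0, limma-voom (limma 3.58.1), a replicate block, the muscle level as a covariate, and leaving out each library. Members and lists were chosen with earlier results of these data known, including those on the other marrow lineages. Beside the 10 members, the text names in each other mast cell and basophil list up to 4 called genes with the smallest p, 8 further genes chosen by name, and up to 3 genes of each marker list. Il4 and the genes marked as named or chosen after their values were seen fall outside this rule. All 196 list entries were found, 1 by its gene ID. A fit on simulated counts for 18757 genes called 71.7% of genes changed 2-fold, 98.9% of those changed 4-fold and 11 of 18385 unchanged genes. The members called lower changed 1.25- to 1.52-fold, below the simulated folds, so these rates do not cover them. The counts were drawn independently from dispersions and library sizes estimated from these libraries, so the false calls hold for that model alone.

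The labels do not say that a replicate number marks a mouse. Deviations from the group means were correlated at 0.166, 0.277 and 0.187 for the same numbers and at -0.170 to -0.008 for different ones, across genes. Deviations within a group cancel out for each gene, so positive values for the same number go with negative ones for the others. A shared mouse and shared handling cannot be told apart by this check. The numbers were therefore used as a block in an alternative, and the reported fit has no pairing term. Of the table's gene IDs 98.0% were found in GENCODE M21 (GRCm38). Transcripts were compared by BLAST 2.17.0, keeping alignments of 100 bases or longer with an identity of 80% or higher.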

Additional observations from a re-analysis of the deposited data

How the results depend on the processing

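Of the 15 alternatives, no member changed sign in any fit that tested it. The 7 called members (6 lower, 1 higher) became 1 under library totals alone and 1 to 6 when 1 library was left out. The 21 called genes of the other mast cell and basophil lists became 5 under library totals alone and 13 to 20 when 1 library was left out. Over all genes tested, 1463 calls became 970 with the muscle covariate and 764 to 1376 without 1 library (905 without NR1, 819 without NR2, 764 without R1). The share of higher calls was 58.5%, 85.4% under library totals alone, 66.9% with totals taken without AY036118 and Gm26917, and 68.2% without R3. The cause of these shifts was not tested. Directions reversed for Kitl (0.04) and Fcer1g (0.12) under library totals alone and for the muscle genes Atp2a1 (-0.08) and Neb (-0.04) with the muscle covariate. With the replicate block 6 members and 1670 genes were called, and among the members only the call of Fcer1a changed (adjusted p 0.0591). Counts limit Tpsb2, Cma1, Mcpt4 and Tpsab1 most, since 0 to 22 counts per library carry wide counting error. The filter at a mean of 1 CPM removes Tpsb2 and Cma1, so it gives no value for them.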

Other observations

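Farther along the chromosome 14 cluster, granzyme genes of cytotoxic lymphocytes differed among themselves. Gzme had 0, 0 and 1 counts in NR1 to NR3 and 10, 5 and 26 counts in R1 to R3, a pooled ratio of 31.3 with a 95% counting interval of 5.32 to 1270. It was under the filter, and with no filter its edgeR adjusted p was 0.00652. Gzmc had 0, 0 and 3 counts against 11, 8 and 10, a pooled ratio of 7.39 (95% counting interval 2.29 to 37.9, edgeR adjusted p 0.061 with no filter). Gzmb had 39 counts over the controls and 75 over the radiated libraries, with a log2 change of 0.57 (edgeR adjusted p 0.312). Gzmd had 1 count in all, and Gzmf, Gzmg and Gzmn had 0. Il33, the ligand of Il1rl1, had 20, 6 and 14 counts in NR1 to NR3 and 20, 65 and 63 counts in R1 to R3. The groups overlapped, with R1 at 0.528 CPM and NR1 at 0.549 CPM. The log2 change of Il33 was 1.47 (SE 0.42, edgeR adjusted p 0.0683), and with no filter its edgeR adjusted p was 0.0147. The T cell and natural killer cell markers had 2 of 11 genes called, both higher (Cd2 and Gzma; 1 gene without NR1, NR2, R1, R2 or R3), and summed to 90.8 to 99.1 CPM in the controls and 105 to 115 CPM in the radiated libraries, and their part in the granzyme counts was not tested. Of 10 osteoblast and osteocyte markers 2 were called lower, Phex and Col1a1. With the muscle covariate 0 were called. The count was 1 without NR1, NR3, R2 or R3 and under library totals alone. It was 3 without R1, 4 without NR2 and 5 with the replicate block. These granzyme genes and Il33 were chosen after their values were seen.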
